A study of Homo sapiens with 23 samples.

Results

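Histone acyl marks inside genes and far from any gene start were described from chromatin immunoprecipitation followed by sequencing (ChIP-seq) of SW480, a long-established cell line from a human colorectal tumour. A region is a stretch of the genome in which a peak caller found more fragments than an estimated local background, and its summit is the highest point. Gene-body regions were those with a summit inside a protein-coding gene of GENCODE release 44 and more than 10 kb from the start of every protein-coding or long non-coding RNA gene. There were 777641 such regions among the 2022255 regions of 20 libraries, or 38.5%. Of them, 38811 (4.99%) lay in several overlapping genes and 46079 (5.93%) overlapped a region called in sheared chromatin that had not been immunoprecipitated (input).

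Cells received 10 mM sodium propionate (NaPr) for 12 to 16 hours, 1 mM sodium butyrate (NaBu) for the same time, or neither. Propionyl marks (H3K18pr and H4K12pr) were measured after NaPr, butyryl marks (H3K18bu and H4K12bu) after NaBu, and acetyl marks (H3K18ac and H4K12ac) after NaPr, after NaBu and in untreated cells. Each of the 10 groups had 2 replicate libraries, and each condition had 1 input library. All libraries came from 1 cell line and nothing in the labels says that replicates were separate cultures, so that p-values measure only the spread between these libraries, which may be technical.

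Acylation neutralises the positive charge of a histone lysine and creates a docking site for reader proteins. Acetylation of H3K18 and of the H4 tail is known from promoters and from enhancers, which are regulatory elements that act from a distance and often sit in introns. Propionyl and butyryl groups are longer relatives of the acetyl group that the same enzymes can attach when the matching acyl-CoA is supplied. The interior of a gene thus holds elements of very different kinds: introns with and without enhancers, coding exons, untranslated exons and the starts of shorter transcripts.

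The first set of sequences shows what strong gene-body regions of each mark looked like. Regions that both replicates of a group held and that overlapped no input region were ranked by the fold enrichment of the weaker replicate. For each mark, a region from the top of 1 group's ranking is printed whose window holds no untranslated exon. Fold enrichment is the ratio of the fragment pileup at the summit to the local background. Each sequence is the 200 bases around the summit of replicate 1, on the + strand of hg38, in lower case because none held a match to the AP-1 motif (TGACTCA or TGAGTCA, which are each other's complement).
H3K18pr, chr9:133134206-133134405, intron of RALGDS: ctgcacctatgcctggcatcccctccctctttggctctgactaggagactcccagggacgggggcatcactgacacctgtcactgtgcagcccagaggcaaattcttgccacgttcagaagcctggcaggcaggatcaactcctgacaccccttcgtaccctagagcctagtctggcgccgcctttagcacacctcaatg
H4K12pr, chr9:136902093-136902292, exon of TRAF2: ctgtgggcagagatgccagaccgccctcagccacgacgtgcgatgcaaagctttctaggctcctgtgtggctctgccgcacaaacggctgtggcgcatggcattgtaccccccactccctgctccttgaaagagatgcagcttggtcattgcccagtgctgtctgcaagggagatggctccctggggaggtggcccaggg
H3K18bu, chr18:58316262-58316461, intron of NEDD4L: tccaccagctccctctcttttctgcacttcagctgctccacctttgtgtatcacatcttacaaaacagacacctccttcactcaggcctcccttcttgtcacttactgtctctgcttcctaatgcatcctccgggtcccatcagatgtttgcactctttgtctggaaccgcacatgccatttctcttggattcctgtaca
H4K12bu, chr18:58315520-58315719, intron of NEDD4L: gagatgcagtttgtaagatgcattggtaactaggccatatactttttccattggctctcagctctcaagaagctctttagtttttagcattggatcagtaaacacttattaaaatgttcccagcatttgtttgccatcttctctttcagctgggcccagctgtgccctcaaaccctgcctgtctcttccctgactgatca
H3K18ac after NaBu, chr17:75549741-75549940, intron of LLGL2: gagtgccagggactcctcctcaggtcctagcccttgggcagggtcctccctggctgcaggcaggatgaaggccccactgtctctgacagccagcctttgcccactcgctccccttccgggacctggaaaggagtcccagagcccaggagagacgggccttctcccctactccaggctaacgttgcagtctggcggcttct
H4K12ac after NaPr, chr6:148342584-148342783, intron of SASH1: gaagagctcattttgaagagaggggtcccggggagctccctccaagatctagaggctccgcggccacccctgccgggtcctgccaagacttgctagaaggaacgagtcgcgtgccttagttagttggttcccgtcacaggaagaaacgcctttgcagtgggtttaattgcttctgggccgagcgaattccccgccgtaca

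The RALGDS region (RALGDS activates the small GTPase Ral) reached a fold enrichment of 137 and 75.9 in the H3K18pr replicates, and it was also the region with the next highest rank for H4K12pr, at 40.8 and 43.9. Its summit lies inside an overlapping protein-coding gene known by identifier only as well. The TRAF2 region (TRAF2 is an adaptor of tumour necrosis factor receptors) reached 53.3 and 44.6 for H4K12pr, and its summit lay 0.249 kb from the start of a shorter transcript of the gene. Both propionyl regions were several kilobases wide in both replicates, with 8431 and 6797 bp at RALGDS and 6696 and 4145 bp at TRAF2.

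Both butyryl marks had their printed region in the same stretch of NEDD4L, which encodes a ubiquitin ligase of epithelial ion channels, 272 kb and 271 kb from its start. The fold enrichment there was 14.1 and 19.4 for H3K18bu, and 8.76 and 8.62 for H4K12bu. This stretch was not particular to the butyryl marks. Once merged, it held gene-body regions of all 20 libraries, with fold enrichments from 1.80 to 25.9. The strongest H4K12bu region lay in an untranslated exon of SMG9 (9.82 and 9.77), where no sequence is shown, so that the printed one is the next. LLGL2, a cell polarity gene, held the acetyl region with 40.8 and 32.3 for H3K18ac after NaBu, and SASH1, a scaffold gene, the one with 8.65 and 8.28 for H4K12ac after NaPr, whose summit lay 0.154 kb from the start of a shorter transcript. In untreated cells the strongest region of both acetyl marks lay at MORF4L1, a chromatin protein gene, in a window that overlaps an untranslated exon, at 55.3 and 39.7 for H3K18ac and at 13.1 and 12.3 for H4K12ac. The summit of that region lay within 1 kb of the start of a shorter transcript. The regions at RALGDS, SMG9, SASH1 and MORF4L1 likewise lay in merged stretches with gene-body regions of all 20 libraries. The GC share of the 6 printed windows was 43.5% to 64.5%, against 40.8% of all bases that meet the gene-body rule.

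The other set shows regions that did hold the AP-1 motif, since the share of windows with that motif was compared between groups. These are the strongest motif-bearing intron regions of the propionyl and butyryl marks under the same conditions, and they were chosen after their values were seen. Regions on a chromosome from which no sequence is printed were left out of this ranking. The capitals mark the motif.
H3K18pr, chr21:34807958-34808157, RUNX1: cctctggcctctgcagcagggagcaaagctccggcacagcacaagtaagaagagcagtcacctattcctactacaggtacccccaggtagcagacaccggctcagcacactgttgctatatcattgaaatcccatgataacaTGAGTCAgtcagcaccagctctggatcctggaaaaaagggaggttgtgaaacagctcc
H4K12pr, chr2:9287455-9287654, ASAP2: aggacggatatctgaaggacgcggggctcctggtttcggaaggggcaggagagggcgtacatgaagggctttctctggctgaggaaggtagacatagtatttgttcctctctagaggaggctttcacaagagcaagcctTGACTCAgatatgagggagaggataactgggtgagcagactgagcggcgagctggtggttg
H3K18bu, chr13:21435624-21435823, ZDHHC20: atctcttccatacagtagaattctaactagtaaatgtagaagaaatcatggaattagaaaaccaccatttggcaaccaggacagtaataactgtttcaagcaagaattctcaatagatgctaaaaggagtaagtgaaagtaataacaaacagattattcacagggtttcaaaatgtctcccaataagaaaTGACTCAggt
H4K12bu, chr12:2112160-2112359, CACNA1C: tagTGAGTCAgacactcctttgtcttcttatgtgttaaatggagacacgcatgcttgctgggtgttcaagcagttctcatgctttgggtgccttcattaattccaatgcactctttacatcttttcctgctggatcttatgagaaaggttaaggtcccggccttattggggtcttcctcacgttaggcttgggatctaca
Fold enrichment was 69.6 and 26.5 at RUNX1 (a transcription factor), 16.8 and 17.4 at ASAP2 (a regulator of Arf GTPases), 10.3 and 15.7 at ZDHHC20 (a palmitoyl transferase) and 5.73 and 5.01 at CACNA1C (a calcium channel subunit).

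The lists themselves differed in length and depth. They held 8158 to 208823 regions, and the pileup at the summits of gene-body regions, recovered as whole fragments in the 12 libraries of NaPr and untreated cells, had a median of 8 to 24 fragments. In NaBu libraries the pileups had been scaled, so that no fragment number is given. The lists carry 3 run tags, which set the propionyl libraries, the acetyl libraries of NaPr and untreated cells, and all NaBu libraries apart. A difference of propionyl from acetyl marks, or of NaBu from untreated cells, therefore cannot be told apart from one between runs, whereas butyryl against acetyl, NaPr against untreated and H3K18 against H4K12 fall within a run. Replicates differed in length most in 4 acetyl groups. H4K12ac after NaBu had 31526 and 3022 gene-body regions, H3K18ac after NaPr 89264 and 29118, H3K18ac in untreated cells 20652 and 48593, and H3K18ac after NaBu 35389 and 16562. Of 12 marker genes of colon epithelium, 8 had a region at their start in 10 or more libraries, with KRT8, KRT18 and CLDN4 in all 20, CDX1 in 3 and KLF5 in 4. Of 12 markers of other cell types this held for 2 (SYT1 and GFAP), and the blood cell genes PTPRC and CD3E had none.

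Gene-body regions took a larger share of H4K12 lists than of H3K18 lists. The share of the list was 40.5% and 40.1% in the H4K12pr replicates, against 33.0% and 33.8% for H3K18pr. H4K12ac had 46.8% and 46.7% after NaPr and 45.2% and 43.3% in untreated cells. H3K18ac had 44.02% and 30.6% after NaPr, and 26.9% and 31.3% in untreated cells. The H4K12 lists of NaPr and untreated cells thus lay above the H3K18 lists of the same acyl group and condition in every replicate, with the narrowest gap at H3K18ac after NaPr replicate 1. After NaBu the sites were not separated. H3K18bu had 28.4% and 31.0%, H4K12bu 26.6% and 29.2%, H3K18ac 30.4% and 27.4%, and H4K12ac 35.6% and 25.9%.

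Over all 5 pairings of acyl group and condition, the difference (H3K18 minus H4K12) was −6.30 percentage points (two-sided exact permutation test within pairings, p = 0.0139, adjusted p = 0.0347 over 5 properties). Leaving out 1 library at a time gave −7.64 to −4.95 points, and in 8 of 20 cases the adjusted p passed above the threshold of 0.05. Without H3K18ac after NaPr replicate 1 the difference was −7.64 (adjusted exact permutation p = 0.0206). With only the 8158 strongest regions of each list, the number in the shortest list, it was −3.89 (adjusted exact permutation p = 0.0598).

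**Figure D1:**
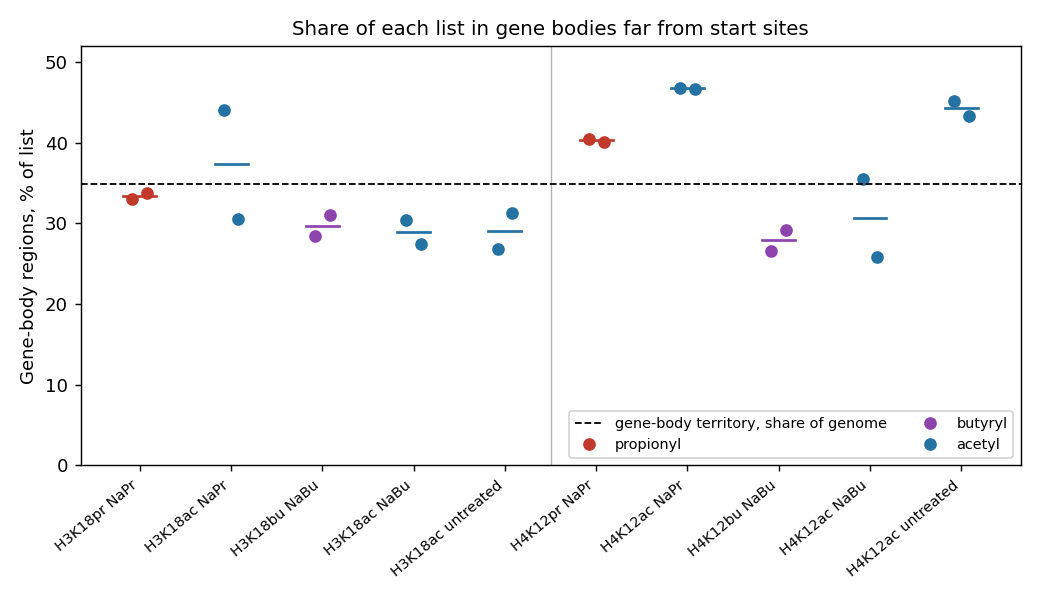
Share of each region list that lay in gene bodies more than 10 kb from gene starts (vertical axis, % of the list) for the 10 groups; dots are the replicate libraries, short lines their mean, and the dashed line the share of the genome that meets the same rule (34.9%). The H4K12 lists of NaPr and untreated cells stand at 40.1% to 46.8%, above the line, and all lists of NaBu cells except 1 stand below it.

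Bases that meet the same rule, called the territory here, made up 1026 Mb or 34.9% of the genome. Set against that share, the lists had neither more nor fewer gene-body regions as a whole, since 8 of 20 libraries lay above it (mean log2 ratio −0.03, sign-flip exact permutation test over 10 group means, p = 0.703). The 3 input lists had 35.5% (NaPr), 36.6% (NaBu) and 33.2% (untreated). Among the 8158 strongest regions of each list, all 20 libraries lay below the territory, between 12.3% and 34.3% (mean log2 ratio −0.64, exact permutation p = 0.00195, the smallest this test can give). The lowest of these shares were those of H3K18ac in untreated cells, 12.99% and 12.3%, and the highest those of H4K12ac after NaPr, 32.1% and 34.3%.

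The acyl marks did not differ from the acetyl marks of the same site and condition in this share beyond the spread (−3.09 points, exact permutation p = 0.159, adjusted p = 0.370). H4K12pr lay below H4K12ac in every replicate, while in the other 3 pairings the replicates overlapped. NaPr against untreated cells gave 5.35 points for the acetyl marks (p = 0.111, adjusted p = 0.333) and NaBu against untreated −6.86 points (p = 0.167, adjusted p = 0.25), in exact permutation tests that cannot go below p = 0.0556.

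Gene-body regions of the acyl marks were wider than those of the acetyl marks. The median width was 482 and 444 bp for H3K18pr, against 274 and 319 bp for H3K18ac after NaPr. It was 496 and 472 bp for H4K12pr, against 255 and 247 bp for H4K12ac after NaPr. The propionyl libraries thus did not overlap with the acetyl libraries of the same treatment. H3K18bu had 332 and 326 bp, against 239 and 303 bp for H3K18ac after NaBu. H4K12bu had 280 and 269 bp and H4K12ac after NaBu 210 and 307 bp, so that only this pairing overlapped. The mean difference over the 4 pairings was 118 bp (exact permutation p = 0.00926, adjusted p = 0.0463). Leaving out 1 library at a time gave 106 to 130 bp, and in 5 of 16 cases the adjusted p passed above 0.05.

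The caller's smallest region moved with this result. The shortest region of a list was 340 to 350 bp in the propionyl lists and 165 to 265 bp in all others, and its part in the difference was measured by keeping regions of at least 350 bp everywhere, a choice made after seeing the data. The difference was then 28.6 bp (adjusted exact permutation p = 0.382). Within the NaBu run, where butyryl and acetyl lists share their run, it was 37 bp (exact permutation p = 0.333), and in the NaPr pairings, which coincide with the runs, 199.8 bp (p = 0.0556, the smallest possible).

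H3K18ac in untreated cells had the replicates furthest apart, 437 and 270 bp, and H4K12ac there had 271 and 268 bp. H3K18 and H4K12 did not differ in width beyond the spread (35.1 bp, exact permutation p = 0.0952, adjusted p = 0.159). Among the strongest 8158 regions the medians ran from 269 bp (H4K12bu replicate 2) to 2658 bp (H3K18ac untreated replicate 1), and there H3K18 exceeded H4K12 by 647 bp (adjusted p = 0.00257, exact permutation). Regions of at least 2 kb made up 7.15% of gene-body regions in H3K18ac untreated replicate 1 and 5.75% in H3K18pr replicate 1, against 0.0362% in H4K12ac after NaPr replicate 2.

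**Figure D2:**
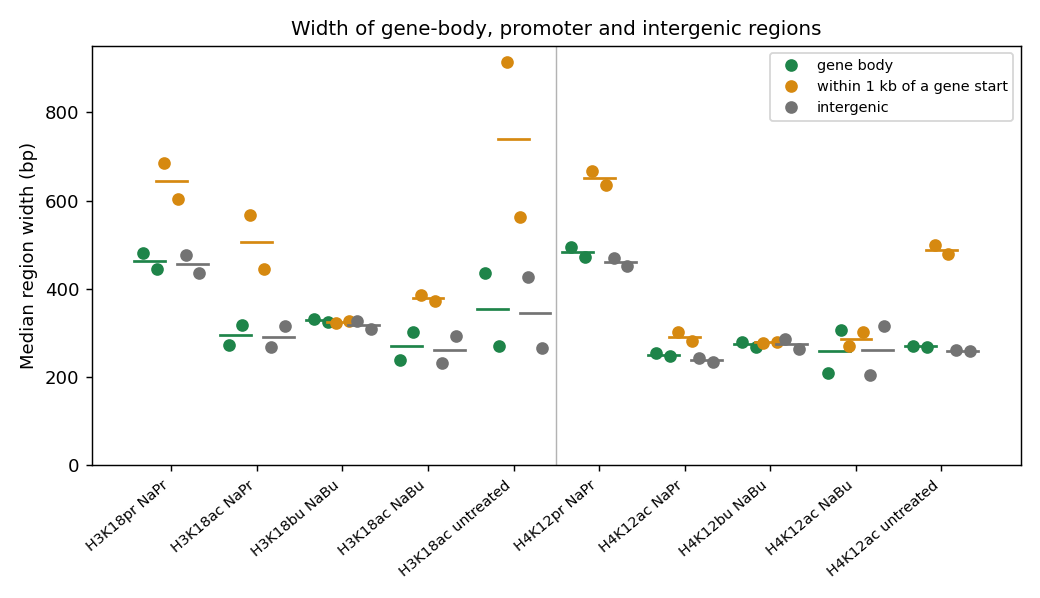
Median width of regions in base pairs (vertical axis, from 0) for gene-body regions, regions within 1 kb of a gene start and intergenic regions over 10 kb from gene starts, in the 10 groups; dots are libraries and short lines their mean. Gene-body widths stay next to intergenic widths, and promoter widths lie higher in 17 of 20 libraries, up to 915 bp in H3K18ac untreated replicate 1.

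Set beside regions within 1 kb of a gene start (264317 regions), gene-body regions were narrower and weaker, and replicates shared them less often. The median width was lower in 17 of 20 libraries (mean difference −134 bp, sign-flip exact permutation test over 10 groups, adjusted p = 0.00391). The exceptions were H3K18bu replicate 1 (332 against 323 bp), H4K12bu replicate 1 (280 against 278 bp) and H4K12ac after NaBu replicate 2 (307 against 303 bp). The median fold enrichment was lower in 18 of 20 libraries (−0.773, adjusted exact permutation p = 0.00391). The exceptions were both replicates of H4K12ac after NaPr, with 2.61 against 2.498 and 2.501 against 2.41. The share of regions that overlapped the partner replicate was lower by a mean of 28.4 percentage points (difference −28.4, adjusted exact permutation p = 0.00391), in 19 of 20 libraries. Only H3K18bu replicate 1 went the other way, with 57.4% against 46.05%. Among the 8158 strongest regions of each list the order of widths turned, with gene-body regions wider by 240 bp (adjusted p = 0.0234, exact permutation). The differences in fold enrichment (−0.348, adjusted p = 0.0625) and in overlap (−5.60 points, adjusted p = 0.0898) were smaller there and missed the threshold of the same exact test.

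Intergenic regions over 10 kb from gene starts (324346 regions) were much closer to the gene-body regions in these values. The classes share that lower limit of distance but were not matched for distance beyond it. Gene-body regions were wider by 7.70 bp on average, in 18 of 20 libraries (adjusted exact permutation p = 0.0312). Without H4K12ac after NaBu replicate 1 this was 7.05 bp (adjusted p = 0.109) and without H4K12bu replicate 2 7.10 bp (adjusted p = 0.0521) in the same exact test. It also missed the threshold with a common minimum width (2.1 bp, adjusted p = 0.689), without internal transcript starts (4.45 bp, adjusted p = 0.297) and among the 8158 strongest regions (26.8 bp, adjusted p = 0.333), again by exact permutation. Fold enrichment differed by 0.0148 (adjusted p = 0.0820) and replicate overlap by 1.41 points (adjusted p = 0.117), both within the spread of the same exact test.

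AP-1 is the dimer of Fos and Jun proteins, transcription factors that respond to growth signals and bind enhancers widely. Its motif lay in 2.66% to 4.30% of the 200 bp summit windows of gene-body regions, and in 2.91% to 3.39% of windows 5 kb to either side. The log2 ratio of summit over flank was higher in gene-body regions than in promoter regions of the same library in all 20 libraries (mean difference 0.65, adjusted exact permutation p = 0.00391). Promoter regions ran from −1.02 to 0.01 and gene-body regions from −0.20 to 0.47. The ratio was not corrected for base composition. The GC share of gene-body summit windows was 44.6% to 51.7%, against 40.8% of the territory. From intergenic regions the gene-body regions did not differ beyond the spread (−0.04, adjusted exact permutation p = 0.207).

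Among the groups, H4K12pr had the lowest log2 ratios, −0.20 and −0.19, so that its summits held the motif less often than their flanks. H3K18pr had −0.11 and 0.08, and the 4 acetyl libraries of NaPr cells 0.14 to 0.28. Propionyl and acetyl libraries of NaPr cells did not overlap, with a difference of −0.33 (exact permutation p = 0.0556, the smallest possible, adjusted p = 0.139). H3K18bu had 0.10 and 0.47, H4K12bu 0.36 and 0.30, H3K18ac after NaBu 0.14 and 0.16, and H4K12ac after NaBu 0.28 and 0.19. In untreated cells H3K18ac had −0.07 and 0.16, and H4K12ac 0.12 and 0.19. Over all 4 pairings acyl and acetyl marks differed by −0.11 (adjusted exact permutation p = 0.370). The GC share of summit windows was 51.6% and 48.8% in H4K12pr, against 45.8% and 45.1% in H4K12ac after NaPr. Its part in the ratios was not tested.

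Along the gene, the mean position of regions lay on the start's side of the middle in 19 of 20 libraries, although the first 10 kb were left out by the rule. Position was measured within the territory of the host gene, from 0 at the end nearest the start to 1 at the far end, so that an even spread gives a mean near 0.5. The 3 input lists also lay below the middle, at 0.488 (NaPr), 0.484 (NaBu) and 0.492 (untreated), and 15 of 20 libraries lay below the lowest of them. H4K12ac in untreated cells leaned most towards the start, with mean positions of 0.45 and 0.459, and held 13.6% and 13.1% of its regions in the first of 10 equal parts of the territory against 7.61% and 8.12% in the last. H3K18pr was almost even, at 0.492 and 0.491. The only library above the middle was H3K18ac untreated replicate 2, at 0.503.

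H3K18 marks lay further along the gene than H4K12 marks. H4K12pr had mean positions of 0.476 and 0.453, both below H3K18pr. H3K18bu had 0.477 and 0.474, and H4K12bu 0.463 and 0.464. H3K18ac after NaBu had 0.491 and 0.484, and H4K12ac after NaBu 0.479 and 0.458. In untreated cells H3K18ac had 0.473 and 0.503, again above H4K12ac. The replicates overlapped only in the acetyl marks of NaPr cells, where H3K18ac had 0.465 and 0.486 and H4K12ac 0.465 and 0.472. The mean difference was 0.0197 of the territory (exact permutation p = 0.00103, adjusted p = 0.00514), it was 0.0168 to 0.0227 when 1 library was left out, and it stayed past the threshold in every alternative that was run. Acyl and acetyl marks differed by −0.00141 (adjusted exact permutation p = 0.792).

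Density also fell with distance from the start in kilobases, which is another measure than position. The bins pool the territory of all genes, and only genes longer than 200 kb reach the last bin. Position along a gene and the choice of genes therefore cannot be told apart in them. H3K18pr, almost even in position, fell from a group mean of 1.51 times at 10 to 20 kb to 0.604 times beyond 200 kb. In the territory 10 to 20 kb from the start of the host gene, H4K12pr had 1.90 and 1.99 times its density over the whole territory, and beyond 200 kb 0.406 and 0.387 times. H4K12ac in untreated cells was alike, with 1.95 and 1.91 times at 10 to 20 kb and 0.347 and 0.378 times beyond 200 kb. H3K18bu was the flattest group, with 1.45 and 1.30 times near the start and 0.621 and 0.692 times beyond 200 kb. Every library fell from bin to bin over the 5 distance bins. H3K18ac after NaPr replicate 1 (1.91 to 0.364 times) was steeper than its partner (1.43 to 0.650 times).

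**Figure D3:**
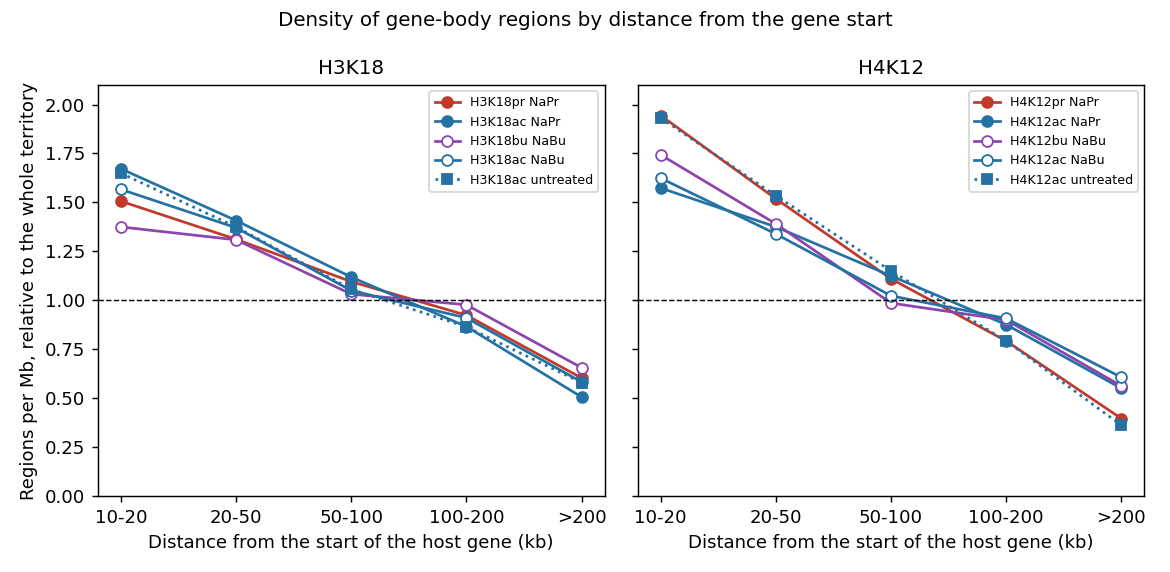
Density of gene-body regions (vertical axis, regions per Mb relative to the whole territory, so that 1 is the average) against distance from the start of the host gene in 5 bins (horizontal axis, kb), as group means of 2 libraries for H3K18 (left) and H4K12 (right). All lines fall with distance, from between 1.37 and 1.94 at 10 to 20 kb to between 0.362 and 0.657 beyond 200 kb.

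Most gene-body regions were intronic, and exons still held more summits than their length gives. Of all gene-body regions, 66837 (8.59%) had their summit in an exon and 24298 (3.12%) in coding sequence, whereas exons make up 6.02% of the territory and coding sequence 2.00%. The exon share was 8.94% and 7.90% for H3K18pr, and 9.51% and 8.12% for H4K12pr. The highest values were those of H3K18ac after NaPr replicate 1 (10.0%, against 7.89% in replicate 2) and H3K18ac untreated replicate 2 (9.85%, against 8.997% in replicate 1). H3K18bu was the lowest group, with 6.68% and 5.36%, and H4K12bu had 8.04% and 7.51%. The other acetyl libraries had 6.65% to 9.02%. In 19 of 20 libraries it lay above the territory's share (mean log2 ratio 0.42, sign-flip exact permutation over 10 groups, p = 0.00391), the exception being H3K18bu replicate 2. The input lists had 4.86% (NaPr), 4.497% (NaBu) and 7.66% (untreated).

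Kinds of exon differed. Coding sequence held 2.54% to 4.03% of gene-body summits in the libraries of NaPr and untreated cells, and 1.09% to 2.62% in those of NaBu cells. The 3′ untranslated exons held 1.85% to 2.97%, around their 2.51% of the territory. The excess in exons rested on which exons were counted: with exons of canonical transcripts alone (3.90% of the territory) the mean log2 ratio was 0.12 (exact permutation p = 0.365).

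Some gene-body regions lay at the starts of shorter transcripts. The rule excluded the starts of genes but not those of every transcript, and 82525 gene-body regions (10.6%) had their summit within 1 kb of the start of some annotated transcript, against 5.39% of the territory. The share ran from 8.45% in H4K12ac after NaPr replicate 2 to 16.8% in H4K12ac after NaBu replicate 2 and H4K12bu replicate 1. The input lists had 4.68% (NaPr), 4.36% (NaBu) and 9.59% (untreated). Without these regions, an alternative chosen after seeing the data, the exon ratio was 0.14 (exact permutation p = 0.148).

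**Figure D4:**
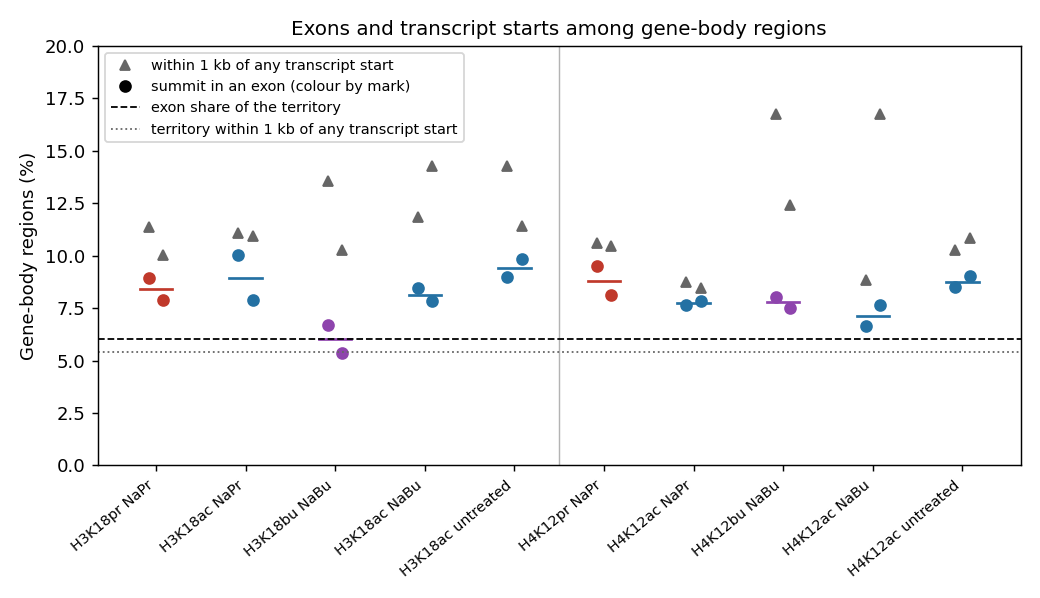
Percentage of gene-body regions (vertical axis) with a summit in an exon (coloured dots, 1 per library, short lines for the mean) or within 1 kb of any transcript start (grey triangles) in the 10 groups; the dashed line is the exon share of the territory (6.02%) and the dotted line the share of the territory within 1 kb of a transcript start (5.39%). All triangles stand above the dotted line and all dots but 1, of H3K18bu, above the dashed line.

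Exon shares did not separate the groups in tests. Acyl minus acetyl gave −0.237 points (adjusted p = 0.792) and H3K18 minus H4K12 0.141 points (adjusted p = 0.740), both by exact permutation. NaBu minus untreated gave −1.45 points for the acetyl marks, with no overlap at either site (exact permutation p = 0.0556, the smallest possible, adjusted p = 0.167), and these groups also differ in run. NaPr minus untreated, within 1 run, gave −0.744 points (exact permutation p = 0.278). The widths gave −46.8 bp for NaBu (p = 0.5) and −37.8 bp for NaPr (p = 0.444) against untreated cells in the same exact tests.

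Regions just inside and just outside the distance limit were alike in these values, given with no test. Regions inside genes 10 to 11 kb from the nearest gene start (27947 regions) had a median width of 340 bp, a median fold enrichment of 2.83 and 13.5% of summits in exons. Those 9 to 10 kb away (29965 regions), just outside the rule, had 340 bp, 2.84 and 14.1%. A further 523088 regions (25.9% of all) lay inside genes but within 10 kb of a gene start.

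The genes most covered included CD9, BCL2L1, ACTN4, SQSTM1, TGM2 and CLDN4. Cover is the percentage of a gene's territory that lies under gene-body regions, and it was compared over the 8508 protein-coding genes with at least 20 kb of territory. Gene-body regions covered 0.0783% (H4K12bu replicate 2) to 4.25% (H4K12pr replicate 1) of the territory of all genes, and 1237 to 7325 of the 8508 genes had no cover at all in a library. The genes below are the 3 with the highest cover of each group, taking the lower replicate, and the 2 most covered of each gene list.

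CD9 (chr12:6199715-6238271, + strand), a tetraspanin of the cell surface, had the highest mean cover over all libraries, 48.3%, and was among the first 3 in 5 groups. H3K18pr regions covered 78.1% and 55.0% of it, H4K12pr regions 74.8% and 82.5%, and H3K18ac regions of untreated cells 87.8% and 56.9%. H3K18ac after NaPr covered 82.5% and 28.6% of it, and H4K12ac after NaPr only 22.4% and 18.4%. The H4K12pr replicates thus lay far above those of H4K12ac in the same cells, while the H3K18pr replicates lay between those of H3K18ac. In untreated cells H4K12ac covered 72.8% and 63.2% of CD9.

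BCL2L1 (chr20:31664452-31723989, − strand), which encodes the anti-apoptotic protein BCL-XL, was among the first 3 in 6 groups, with a mean cover of 47.0%. It had 76.9% and 83.3% in H4K12pr, 28.4% and 29.2% in H3K18bu and 21.7% and 15.7% in H4K12bu, the most of any gene for the last mark by the lower replicate. C17orf100, which overlaps SLC13A5, had 8.53% and 8.67% in H4K12bu. SQSTM1 (chr5:179806398-179838078, + strand), the autophagy receptor p62, led or came next in all 4 groups of NaPr cells. It had 89.1% and 85.7% in H4K12pr, 62.5% and 51.5% in H3K18pr, 66.5% and 58.3% in H3K18ac and 63.8% and 61.5% in H4K12ac after NaPr. After NaBu it was 3.11% (H3K18bu replicate 2) to 27.1% (H3K18ac replicate 1), in lists that covered less of all territory. Divided by each library's cover of all territory, SQSTM1 stood at 54.1 and 58.2 times in H4K12bu, above the 21.0 to 36.1 times of the H4K12 libraries of NaPr cells. SQSTM1 overlaps MGAT4B and MRNIP, so that its cover cannot be assigned to 1 gene.

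TGM2 (chr20:38127385-38166578, − strand), a transglutaminase that crosslinks proteins, had 96.7% and 90.3% of its territory under H4K12pr regions, the highest cover in a weaker replicate of any gene and group. H4K12ac covered 44.1% and 21.2% of it after NaPr, and 78.1% and 75.2% in untreated cells. ACTN4 (chr19:38647649-38731589, + strand), an actin crosslinker, led H4K12ac in untreated cells with 91.3% and 87.0%, and had 87.6% and 39.6% in H3K18ac after NaPr. HNRNPA2B1, an RNA-binding protein gene, showed how far 1 library could go: it had 83.9% and 72.4% in H4K12ac of untreated cells, but 76.7% and 5.16% in the H3K18ac replicates of NaPr cells. TGM2 overlaps RPRD1B, ACTN4 overlaps CAPN12, and HNRNPA2B1 overlaps NFE2L3 and CBX3.

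CLDN4 (chr7:73799542-73832690, + strand), a tight junction protein gene, was among the first 3 in 4 groups, with 49.97% and 54.6% in H3K18ac after NaBu and 29.5% and 15.9% in H4K12ac after NaBu. LMNA, the gene of lamin A and C, had 64.1% and 55.0% in H3K18ac of untreated cells. TGFBI, a matrix protein gene induced by TGF-β, had 59.97% and 49.7% in H3K18pr. ADORA2B, an adenosine receptor gene, had 46.3% and 41.4% in H3K18ac after NaPr, and ANXA2, a membrane-binding annexin gene, 41.5% and 35.9% in H4K12ac after NaPr.

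**Figure D5:**
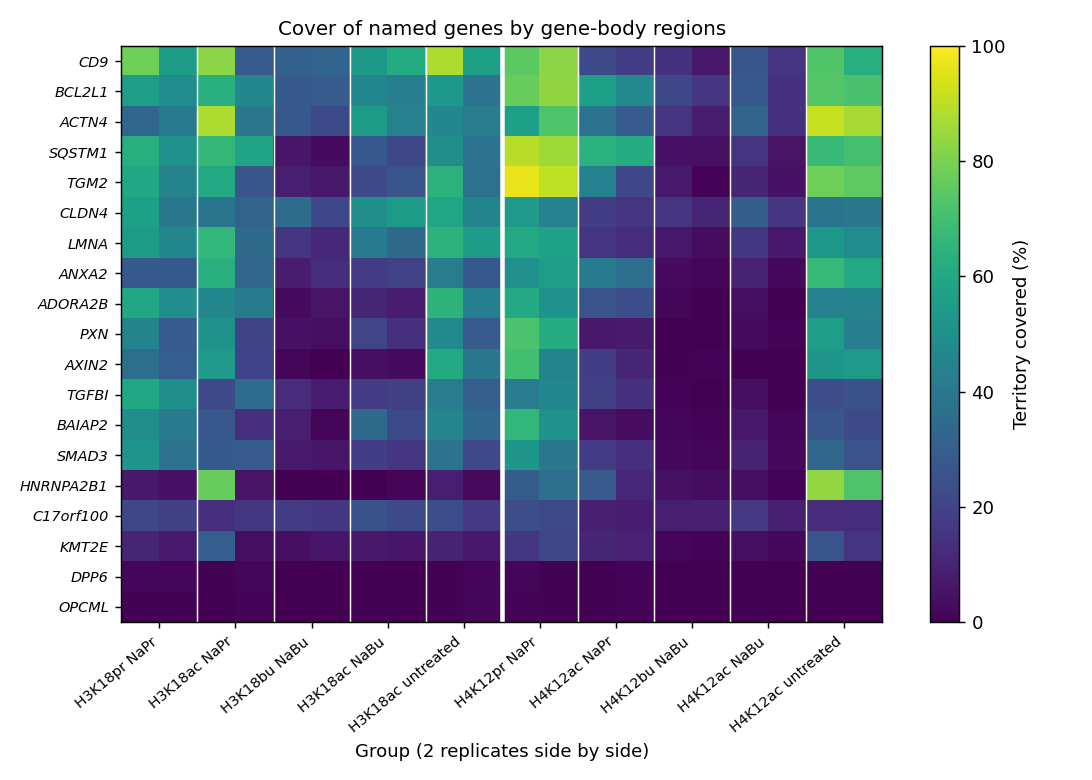
Percentage of the territory covered by gene-body regions (colour, from 0 to 100%) for the named genes (rows, ordered by mean cover) in the 20 libraries (columns, replicates side by side within each group). CD9, BCL2L1, ACTN4 and SQSTM1 stand at the top with means of 42.6% to 48.3%, and DPP6 and OPCML at the bottom with 0.629% and 0.469%.

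Whether a gene was covered more by an acyl mark than by the acetyl mark was read from relative cover, the gene's cover divided by that of all territory in the same library, and a gene was counted when the replicates of the marks did not overlap. H4K12pr against H4K12ac after NaPr gave 1604 higher genes (18.9% of the 8508) and 2795 lower (32.9%). H3K18pr against H3K18ac gave 1362 higher (16%) and 1215 lower (14.3%). H3K18bu against H3K18ac after NaBu gave 724 higher (8.51%) and 1625 lower (19.1%). H4K12bu against H4K12ac gave 262 higher (3.08%) and 356 lower (4.18%). There 7325 and 7259 genes had no cover in the H4K12bu replicates, and 1841 and 7206 in those of H4K12ac. In the H3K18bu replicates 6347 and 5956 genes had none, and in those of H3K18ac after NaBu 2392 and 4753. A gene with no cover in an acyl replicate could not be counted as higher, and a gene with none in an acetyl replicate not as lower. The shares of all 8508 genes include such genes. With 2 replicates a group the counts of higher and lower genes are descriptions.

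The counts and their balance moved with the length of the lists. With the 8158 strongest regions of each list, there were 406 higher and 451 lower genes for H4K12pr, 373 and 225 for H3K18pr, 406 and 306 for H3K18bu, and 184 and 206 for H4K12bu. Non-overlap is easier to reach with 1 library fewer, and leaving out any 1 library of a comparison raised its counts. Without H3K18ac after NaPr replicate 1 there were 2251 higher and 2686 lower genes for H3K18pr, and without its replicate 2 there were 2761 and 3020. Without H3K18ac after NaBu replicate 2, 4089 genes were lower for H3K18bu, and without H4K12ac after NaBu replicate 2, the short list, 5248 were lower for H4K12bu. The full range was 2159 to 2761 higher and 1784 to 3020 lower for H3K18pr, 2164 to 2476 and 3458 to 3815 for H4K12pr, 847 to 1533 and 1952 to 4089 for H3K18bu, and 323 to 797 and 542 to 5248 for H4K12bu.

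BAIAP2, a scaffold between membrane and actin, was among the higher genes of both propionyl marks. Its relative cover was 15.5 and 17.1 times the library's average in H4K12pr, against 2.70 and 2.03 times in H4K12ac. In H3K18pr it was 22.3 and 21.4 times, against 8.43 and 10.98 times in H3K18ac. BAIAP2 overlaps AATK. PXN, the focal adhesion protein paxillin, was also higher in H4K12pr, at 16.9 and 20.8 times against 3.49 and 4.29 times, which came from 71.7% and 61.7% of its territory against 6.95% and 7.31%. In untreated cells H4K12ac stood at 17.0 and 15.2 times at PXN and at 8.08 and 8.03 times at BAIAP2. H3K18ac there stood at 29.9 and 18.8 times at BAIAP2. Propionyl and acetyl lists also differ in run, so that mark and run cannot be told apart at these genes. TGM2 was higher in both propionyl marks and CD9 as well. SQSTM1 and ANXA2 were lower in H4K12pr than in H4K12ac, at 21.0 and 28.9 against 32.1 and 36.1 times for SQSTM1 and at 11.8 and 18.8 against 20.9 and 21.1 times for ANXA2. HNRNPA2B1 was lower in H3K18pr, at 3.03 and 2.44 times against 23.7 and 4.11 times in H3K18ac, with replicate 1 of H3K18ac far above its partner.

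Among the butyryl marks, CD9, BCL2L1, ACTN4 and ANXA2 were higher in H3K18bu than in H3K18ac after NaBu. CD9 had 110 and 105 times the average against 43.3 and 80.0 times, and ACTN4 had 95.9 and 72.8 times against 44.1 and 56.5 times. In percent of territory these genes had less cover in H3K18bu than in H3K18ac (CD9 31.2% and 32.5% against 53.4% and 61.6%), since the H3K18bu lists covered only 0.284% and 0.308% of all territory. SQSTM1 was lower, at 21.3 and 10.1 against 22.0 and 28.4 times. In H4K12bu, BCL2L1 stood at 239 and 201 times against 34.4 and 131 times.

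Gene lists for adhesion and junctions, for Wnt and TGF-β signalling and for chromatin regulators, of 20 genes each, had a median cover above that of all genes in every group. Neuronal and muscle genes had a median below that of all genes in the 8 groups other than the butyryl ones. In H4K12pr the median cover was 12.9% for adhesion and junction genes, 10.8% for chromatin regulators and 9.23% for Wnt and TGF-β genes, against 2.02% for all 8508 genes and 0.189% for neuronal and muscle genes. H4K12ac in untreated cells had the same order at the top, with 10.97% for adhesion genes and 8.62% for chromatin regulators against 1.92% for all genes. In H3K18pr adhesion genes had 7.31% and chromatin regulators 2.85%, against 0.975% for all genes. After NaBu the medians were small throughout, with 1.81% for adhesion genes in H3K18ac and 0.834% in H3K18bu.

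The adhesion list, led by ACTN4 and PXN, had 10 of 20 genes higher and 5 lower in H3K18bu than in H3K18ac after NaBu, against 8.51% and 19.1% of all genes. Of all 8508 genes, 6347 and 5956 had no cover in the H3K18bu replicates and could not be higher. The median cover in H3K18bu was 0.834% for this list and 0% for all genes, so that the shares do not compare equally covered genes. In H3K18pr 4 adhesion genes were higher and 4 lower, against 16% and 14.3% of all genes. In H4K12pr 7 were higher and 6 lower, against 18.9% and 32.9%, and in H4K12bu 1 was higher and 1 lower, against 3.08% and 4.18%. The median cover in H4K12pr was 12.9% for this list and 2.02% for all genes, so that cover was unequal there too.

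Of the 19 Wnt and TGF-β genes with territory, 9 were higher and 5 lower in H4K12pr, against 18.9% and 32.9% of all genes. The median cover in H4K12pr was 9.23% for this list and 2.02% for all genes. Of all genes, 1640 and 2053 had no cover in the H4K12pr replicates and could not be higher. The shares thus do not compare equally covered genes. AXIN2, a feedback inhibitor of Wnt signalling, had 69.6% and 44.8% of its territory under H4K12pr regions against 18.5% and 10.8% under H4K12ac after NaPr. It overlaps a protein-coding gene known by identifier only. SMAD3, an effector of TGF-β receptors, had 53.1% and 40.2% against 17.6% and 14.0%. In untreated cells, however, H4K12ac regions covered 52.4% and 54.1% of AXIN2 and 32.9% and 25.6% of SMAD3. The territories of AXIN2 and SMAD3 were 23.1 kb and 99.9 kb long. In H3K18pr 2 genes of this list were higher and 3 lower, against 16% and 14.3% of all genes, and in H3K18bu 3 were higher and 7 lower, against 8.51% and 19.1%. Of 19 chromatin regulators, 8 were higher and 6 lower in H4K12pr, against 18.9% and 32.9% of all genes. Their median cover there was 10.8%, so that the same limit applies. In H3K18pr 3 of these regulators were higher and 3 lower, against 16% and 14.3% of all genes. In H3K18bu 3 were higher and 5 lower, against 8.51% and 19.1%. KMT2E, of this list, had 16.0% and 21.7% of its territory under H4K12pr regions against 10.8% and 9.27% under H4K12ac, with replicates that overlapped in relative cover.

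Of the 20 neuronal and muscle genes, 15 were lower and 1 higher in H4K12pr than in H4K12ac, against 32.9% and 18.9% of all genes. Their median cover in H4K12pr was 0.189%, against 2.02% for all genes, so that these shares do not compare equally covered genes either. In H3K18pr 5 were higher and none lower, against 16% and 14.3% of all genes. DPP6, a subunit of neuronal potassium channels with 1035 kb of territory, had 1.47% and 0.774% in H4K12pr and 0.598% and 0.841% in H4K12ac. OPCML, a neuronal adhesion gene, had 0.864% and 0.519% against 0.747% and 0.961%. No gene of this list had a mean cover above 0.629% over the libraries.

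The share of gene-body regions that both replicates held differed widely between groups. In H3K18bu 57.3% and 50.3% of gene-body regions overlapped a gene-body region of the partner, and in H4K12bu 43.1% and 47.2%. H3K18pr had 33.6% and 35.9%, and H4K12pr 31.9% and 44.8%. H4K12ac after NaPr had only 18.9% and 21.3%. In H4K12ac after NaBu, lists of 31526 and 3022 gene-body regions gave 7.27% and 78.3%, so that the short list lay mostly inside the long one.

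Merging gene-body regions of all libraries that shared at least 1 bp gave 344497 merged regions. Of these, 227019 (65.9%) came from 1 library and 294437 (85.5%) were held by both replicates of no group. A small core of 452 merged regions (0.131%) was present in all 20 libraries, and 6785 (1.97%) in 10 or more. The merged core regions had a median width of 5380 bp and a range from 1293 to 28532 bp. Merging over 20 libraries widens regions by construction, so that these are not widths of called regions. Of the core regions, 68 (15.04%) had their midpoint within 1 kb of a transcript start. Of the 452, 202 overlapped no input region.

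The core lay in 347 host genes, where 2 regions had summits in 2 genes each, besides 22 regions with summits only where genes overlap. CTBP2 (a transcriptional corepressor), MYOF (a membrane repair protein) and RUNX1 held 5 core regions each. OSBPL3 (an oxysterol-binding family member), SLIT3 (a guidance ligand) and STK24 (a kinase) held 4 each. The merged core regions were found in every group, so that no group comparison can be drawn from them.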

How the data were processed

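ChIP-seq region lists of SW480 cells were used, 1 per library, from 20 immunoprecipitated and 3 input libraries grouped by the sample labels. According to the submitters' processing notes and the study's methods, the authors demultiplexed reads with bcl2fastq 2.17.1, trimmed them with cutadapt 1.8.1, aligned them to hg38 with Bowtie2 2.3.1 and called peaks per library with MACS2 2.1.0 at p 0.01, with blacklisted regions removed. The study's methods describe input as the control of the ChIP samples in peak calling. The deposited lists give each region a fold enrichment (a ratio of pileup over local background) and −log10 p-values and −log10 q-values. Reads were not used, so that a region says where signal passed the caller's threshold, not how much signal there was. Longer lists and deeper libraries hold weaker regions.

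Summits were placed in GENCODE release 44 genes with Python 3.11.15, numpy 2.4.6, pandas 2.3.3 and bedtools 2.31.1. Territory is every base that meets the gene-body rule, and cover was computed for genes with at least 20 kb of it. A region counted as held by the partner replicate when they shared 1 bp. AP-1 was searched in 200 bp at the summit and in windows 5 kb to either side.

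Comparisons used 1 value per library. Two-sided exact permutation tests, enumerated with numpy, permuted libraries within pairings of the same site, acyl group or condition. These exact permutations had 1296 arrangements for acyl against acetyl (smallest p 0.00154), 7776 for H3K18 against H4K12 (smallest p 0.000257) and 36 for treatments (smallest p 0.0556). Sign-flip tests over 10 group means had 1024 arrangements and a smallest p of 0.00195. Benjamini-Hochberg adjustment ran over the 5, 3 or 4 properties of a comparison, and the procedures were tested on simulated data. Alternatives were q under 0.05, equal list lengths, no regions over input, a distance of 20 kb, a replicate block, canonical exons, position along the whole gene, overlap of 50% of a region and leaving out each library, plus a common minimum width and no internal transcript starts, both added after seeing the data.

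Named genes were the 3 most covered of each group by the lower replicate and the 2 most covered of each list, with 1 gene list and 1 gene not reported here. The members, gene lists and tests were chosen with earlier results of these data known. Fragments per summit were solved with scipy 1.17.1 from fold and p under the caller's Poisson model, within 0.1 of a whole number. Figures were drawn with matplotlib 3.10.9.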

Additional observations from a re-analysis of the deposited data

Results flagged for a closer look

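In 5 cases the replicates of a comparison were fully apart in opposite directions in 2 pairings of groups. The difference between the pairings was not tested in any of them. The share of summits in exons was 1.07 points higher in H4K12pr than in H4K12ac after NaPr, whereas H3K18bu minus H3K18ac after NaBu was −2.11 points. Within H3K18 and H4K12, the exon share of H3K18ac after NaPr exceeded that of H4K12ac by 1.22 points, while H3K18bu minus H4K12bu was −1.76 points.

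Position along the territory was 0.0159 higher in H3K18pr than in H3K18ac after NaPr, and the difference of H3K18bu from H3K18ac after NaBu was −0.0120. The log2 ratio of AP-1 motifs at summits was 0.0950 higher in H4K12bu than in H4K12ac after NaBu, and the difference of H4K12pr from H4K12ac after NaPr was −0.44. It was 0.17 higher in H3K18pr than in H4K12pr, and H3K18ac minus H4K12ac after NaBu gave −0.0850. The NaPr pairings of propionyl and acetyl marks coincide with the runs, so that mark and run cannot be told apart there.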

How the results depend on the processing

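Keeping regions of q under 0.05 gave an H3K18 minus H4K12 share of −5.72 points (adjusted p = 0.0707, exact permutation) and a gene-body minus promoter width of −109 bp (adjusted p = 0.0586, exact permutation), both no longer past the threshold. The sign turned for differences within the spread: acyl minus acetyl exon share (0.0526), H3K18 minus H4K12 exon share (−0.479) and AP-1 (0.0305), NaBu width (51.9 bp), and gene body minus intergenic fold (−0.00423), overlap (−0.0140) and AP-1 (0.0129). H4K12bu then had 90 higher and 139 lower genes.

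With equal list lengths, signs turned for acyl share (3.00), acyl position (0.0106), NaBu share (8.36), promoter width (240 bp) and, against intergenic regions, overlap (−3.01) and AP-1 (0.18). The H3K18 minus H4K12 share was −3.89, acyl width 279 bp (adjusted exact permutation p = 0.332), intergenic width 26.8 bp, promoter fold −0.348 and promoter overlap −5.60, none past the threshold. Past it came the genome ratio (−0.64), H3K18 minus H4K12 width (647 bp) and exon share (2.22). Genes higher and lower were then 373 and 225 (H3K18pr), 406 and 451 (H4K12pr), 406 and 306 (H3K18bu), with 206 lower for H4K12bu. Fewer and stronger regions are compared there by construction.

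Beyond 20 kb, the H3K18 share (−4.11) and acyl width (117 bp, adjusted exact permutation p = 0.0540) missed the threshold, the genome ratio (−0.21), intergenic fold (0.0173) and overlap (1.78) passed it, and acyl position (0.00141) and H3K18 exon share (−0.0655) turned. Without regions over input only H3K18 AP-1 turned (0.00202). A common minimum width gave acyl width 28.6 bp, H3K18 width 48.2 bp (adjusted exact permutation p = 0.0442), intergenic width 2.1 bp, and turned acyl position (0.00417), intergenic fold (−0.0140) and overlap (−2.33). Leaving out internal transcript starts gave an exon ratio of 0.14, intergenic width of 4.45 bp and overlap of −0.151, and canonical exons an exon ratio of 0.12.

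The labels do not say whether libraries of the same replicate number belong together. The correlation of deviations between such libraries ran from −0.151 to 0.160 over 13 pairs of groups. Such weak values give no sign of pairing but cannot exclude it. With a replicate block the H3K18 share (−6.30, adjusted p = 0.0635) and acyl width (118 bp, adjusted p = 0.117) missed the threshold in the exact permutation test, and no other call changed.

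Leaving out 1 library gave acyl width 106 to 130 bp. It missed the threshold of 0.05 without H3K18bu 1, H4K12bu 1 or 2, H3K18ac NaBu 1 or H4K12ac NaBu 1. The H3K18 share was −7.64 to −4.95. It missed the threshold without H3K18pr 1, H3K18bu 1, H4K12bu 2, H3K18ac NaPr 2, H4K12ac NaPr 1 or 2, H3K18ac NaBu 2 or H4K12ac NaBu 1. Ranges were −0.506 to 0.0311 (acyl exon share), −0.00426 to 0.00145 (acyl position), 18.4 to 51.8 bp (H3K18 width), −0.0741 to 0.355 (H3K18 exon share), −0.0566 to 0.0185 (H3K18 AP-1) and −79.5 to 4 bp (NaPr width). Against intergenic regions they were 7.05 to 8.35 bp (width), 0.0121 to 0.0176 (fold), 1.02 to 1.77 (overlap) and −0.0628 to −0.0270 (AP-1). Counts of genes, which need less separation with 1 library fewer, were 2159 to 2761 higher and 1784 to 3020 lower for H3K18pr, 2164 to 2476 and 3458 to 3815 for H4K12pr, 847 to 1533 and 1952 to 4089 for H3K18bu, and 323 to 797 and 542 to 5248 for H4K12bu. Among results past the threshold, the H3K18 position (0.0168 to 0.0227) and all 4 gene-body minus promoter differences kept their side in every case of leaving out 1 library. The causes of these changes were not tested. Lists of few regions (H4K12bu, H4K12ac NaBu 2) and scaled NaBu pileups limit what can be detected.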
